A study of Drosophila melanogaster with 12 samples.

Results

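The genes described here encode the proteins of the mitochondrial ribosome of Drosophila melanogaster, measured in whole adult females with and without corpora allata and with and without a fertile germ line. A gene was taken when its symbol begins with mRpL (large subunit) or mRpS (small subunit) and it has a probe set annotated to it alone. This rule gave 71 probe sets for 69 genes, 44 of the large and 25 of the small subunit, among 11982 genes with a probe set of their own. All 69 passed the filter on low values, as did 9968 genes in all, and for the 2 genes with a second probe set the one with the higher mean was used. RefSeq lists 73 genes with such symbols. Of the other 4, mRpS10 and mRpL53 share their probe sets with another gene, and mRpL34 and mRpL37 are not named in the array annotation used here.

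Mitochondria keep a small genome that encodes core subunits of the respiratory chain, and they translate it with ribosomes of their own. The RNA of these ribosomes is mitochondrial, but every mitochondrial ribosomal protein is encoded in the nucleus, made in the cytosol and imported. Some of these proteins have counterparts in the bacterial ribosome and others are known only from mitochondria, and growing oocytes make mitochondria in great number.

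The 4 genotypes were each measured on 3 Affymetrix Drosophila 2.0 arrays (n = 3). In the corpora allata knockout (CAKO), Aug21-Gal4 drives UAS-NIPP1 in the gland that makes juvenile hormone, and the ablation is not complete in all females. Its control was called wildtype. OvoD1 is a dominant mutation that stops the female germ line early, and it was carried either with intact corpora allata (OvoD1) or together with the knockout (CAKO;OvoD1). The RNA of 1 array came from a pool of 25 females out of cages of 125, aged 15 days by the sample labels and 14 days by the growth protocol, so a value averages over all organs of the body. A legend of the study places wildtype and CAKO in the wDAH background and the OvoD1 pair in w1118/wDAH, while the design text gives wildtype as wDah/w1118. If the first holds, the OvoD1 mutation and the background cannot be told apart.

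Each value is a log2 expression value as deposited, after GC-RMA background adjustment, and differences between genotypes are log2 fold changes with a standard error (SE) from a linear model over all 12 arrays. A gene was called where the adjusted p from limma was under 0.05 and the change was at least 1.5-fold, which is 0.58 on the log2 scale. The labelled genotypes were visible in their marker genes. Transcripts of jhamt, for the methyltransferase of juvenile hormone synthesis, were reduced 2.88-fold by the knockout in fertile and 5.08-fold in sterile females. Those of the germ line gene ovo were reduced 16.7-fold by OvoD1. That mutation is named after ovo itself, so ovo is not an independent marker. The mean of 9 germ line markers lay at 10.20 to 10.33 in wildtype and 10.06 to 10.17 in CAKO, and at 4.84 to 5.07 in OvoD1 and 4.53 to 4.86 in CAKO;OvoD1. Transcripts of vas were at the floor of the scale (2.13) in both sterile genotypes. On wildtype replicate 1 and CAKO replicates 1 and 3, 1 of the 9 markers was at the floor too. A floor value alone thus does not mark the loss of the germ line. Over the list the germ line signal of both sterile genotypes was low but not nil. Replicate arrays differed by a median of 0.04 to 0.08 over the probe sets kept, and the median SD of a member over replicates was 0.11 in wildtype and 0.05 to 0.07 in the other genotypes. Wildtype replicate 2 had the highest value of the 3 wildtype arrays for 57 of the 69 members.

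The mitochondrial ribosomal protein genes differed mainly with OvoD1 and little with the corpora allata. Relative to its own mean over the 12 arrays, the median member lay at 0.30, 0.39 and 0.20 on the wildtype arrays and at 0.23, 0.22 and 0.26 on the CAKO arrays. It lay at -0.31, -0.27 and -0.23 on the OvoD1 arrays and at -0.29, -0.24 and -0.32 on the CAKO;OvoD1 arrays. The fertile and sterile genotypes did not overlap in this median, and the arrays with and without corpora allata did. In bulk RNA from whole females, fewer cells of a type and less RNA per cell cannot be told apart.

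**Figure D1:**
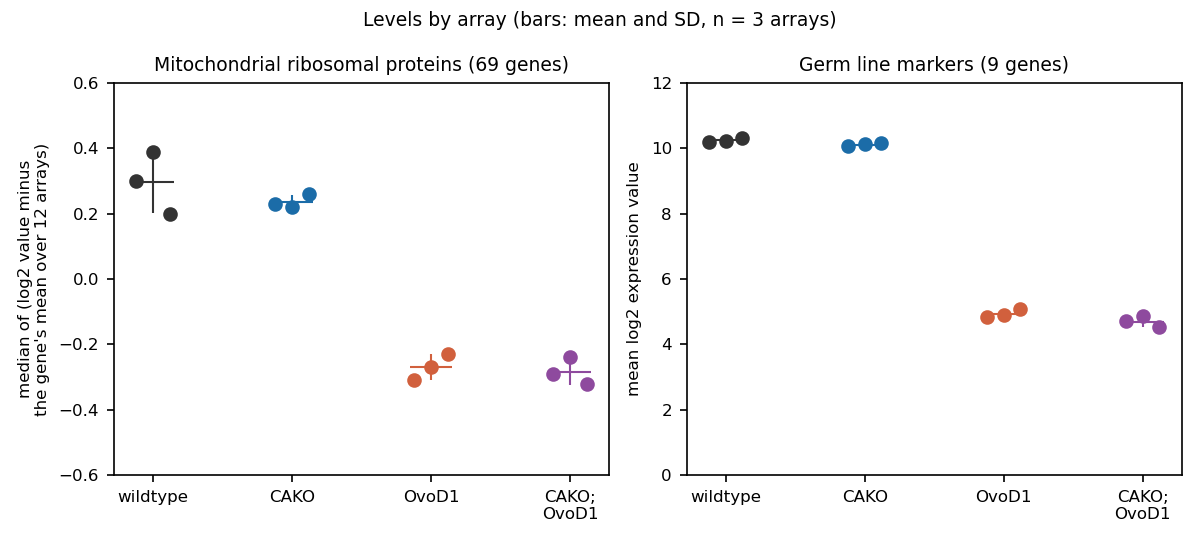
Each point is 1 array and the bars give the mean and SD of 3 arrays per genotype. On the left, the median over the 69 genes of the log2 value minus the gene's mean over 12 arrays, between 0.20 and 0.39 in wildtype and CAKO and between -0.32 and -0.23 in the OvoD1 genotypes. On the right, the mean log2 value of 9 germ line markers, which is above 10 in wildtype and CAKO and between 4.53 and 5.07 in the OvoD1 genotypes.

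The first question was whether removal of the corpora allata changed these genes in fertile females. None of the 69 was called in CAKO against wildtype in either direction, while 3.89% of all genes tested were called higher and 2.3% lower. The median log2 fold change was -0.06, beside 0 for all genes tested, and the single values ran from -0.34 to 0.40 with a median SE of 0.06. For all 69 genes the 95% confidence interval lay within 1.5-fold in both directions, and for 56 within 1.25-fold. Without the fold threshold, 1 member was higher and 4 were lower at an adjusted p under 0.05 (limma), where 8.03% and 7.34% of all genes were. At an unadjusted p under 0.05, 1 was higher (1.45%) and 17 were lower (24.6%), where 13.8% and 14.5% of all genes were, and the methods' t-test with its 1.5-fold threshold called 0.

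The 1 member that was higher was mRpS5, a counterpart of the bacterial protein that lines the entry of the mRNA into the small subunit. The wildtype arrays read 12.01, 12.09 and 11.99 and the CAKO arrays 12.42, 12.40 and 12.47. The genotypes did not overlap, and the difference was 1.32-fold (log2 fold change 0.40, SE 0.04, adjusted p = 0.00017). The next largest rise, that of mRpL35, was 0.11 (SE 0.08, adjusted p = 0.543).

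The 4 that were lower by less than 1.5-fold were mRpL32, mRpS9, mRpS35 and mRpS29. For mRpL32, a bacterial-type protein of the large subunit, wildtype read 9.39, 9.64 and 9.34, and CAKO read 9.04, 9.12 and 9.17, with no overlap (log2 fold change -0.34, SE 0.07, adjusted p = 0.0126). For mRpS9, whose bacterial counterpart reaches the tRNA in the P site, they were 10.85, 11.07 and 11.05 against 10.71, 10.72 and 10.74 (-0.26, SE 0.06, adjusted p = 0.0222). The CAKO arrays were again the lower ones throughout. The others are mitochondrion-specific: mRpS35 (-0.23, adjusted p = 0.0164) and mRpS29, a GTP-binding protein known in humans as DAP3 (-0.22, adjusted p = 0.0176). Leaving out wildtype replicate 2 moved the median of the 69 from -0.06 to -0.02, and leaving out wildtype replicate 3 moved it to -0.10.

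In sterile females the comparison of CAKO;OvoD1 with OvoD1 called 0 of the 69 higher and 0 lower, while 2.26% of all genes were called higher and 2.19% lower. The median was -0.01, the range -0.28 to 0.25, and all 69 confidence intervals again lay within 1.5-fold and 59 within 1.25-fold. Without the fold threshold 3 were higher and 1 was lower (6.61% and 6.05% of all genes). At an unadjusted p under 0.05 these counts were 8 (11.6%) and 6 (8.7%), where 14.9% and 13.1% of all genes passed, and the methods' t-test with its fold threshold called 0.

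The lower one was mRpL21, a bacterial-type protein of the large subunit. Its values were 8.24, 8.22 and 8.10 in OvoD1 and 7.97, 7.99 and 7.76 in CAKO;OvoD1 (log2 fold change -0.28, SE 0.08, adjusted p = 0.0481). The higher ones were mRpL39 (0.25, adjusted p = 0.0262), mRpS30 (0.23, adjusted p = 0.0394) and mRpL16 (0.18, adjusted p = 0.0332). Some changes of like size did not pass, those of mRpS11 at 0.25 (adjusted p = 0.0782), mRpS23 at 0.25 (adjusted p = 0.103), mRpL50 at 0.22 (adjusted p = 0.162) and mRpS14 at -0.23 (adjusted p = 0.217). Over the 69 genes the fertile and sterile effects had a Pearson's r of 0.11 and a Spearman's rho of 0.17, beside 0.41 and 0.34 over all genes tested, as a description over genes, which are not independent and share the probe chemistry, from comparisons with no array in common.

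**Figure D2:**
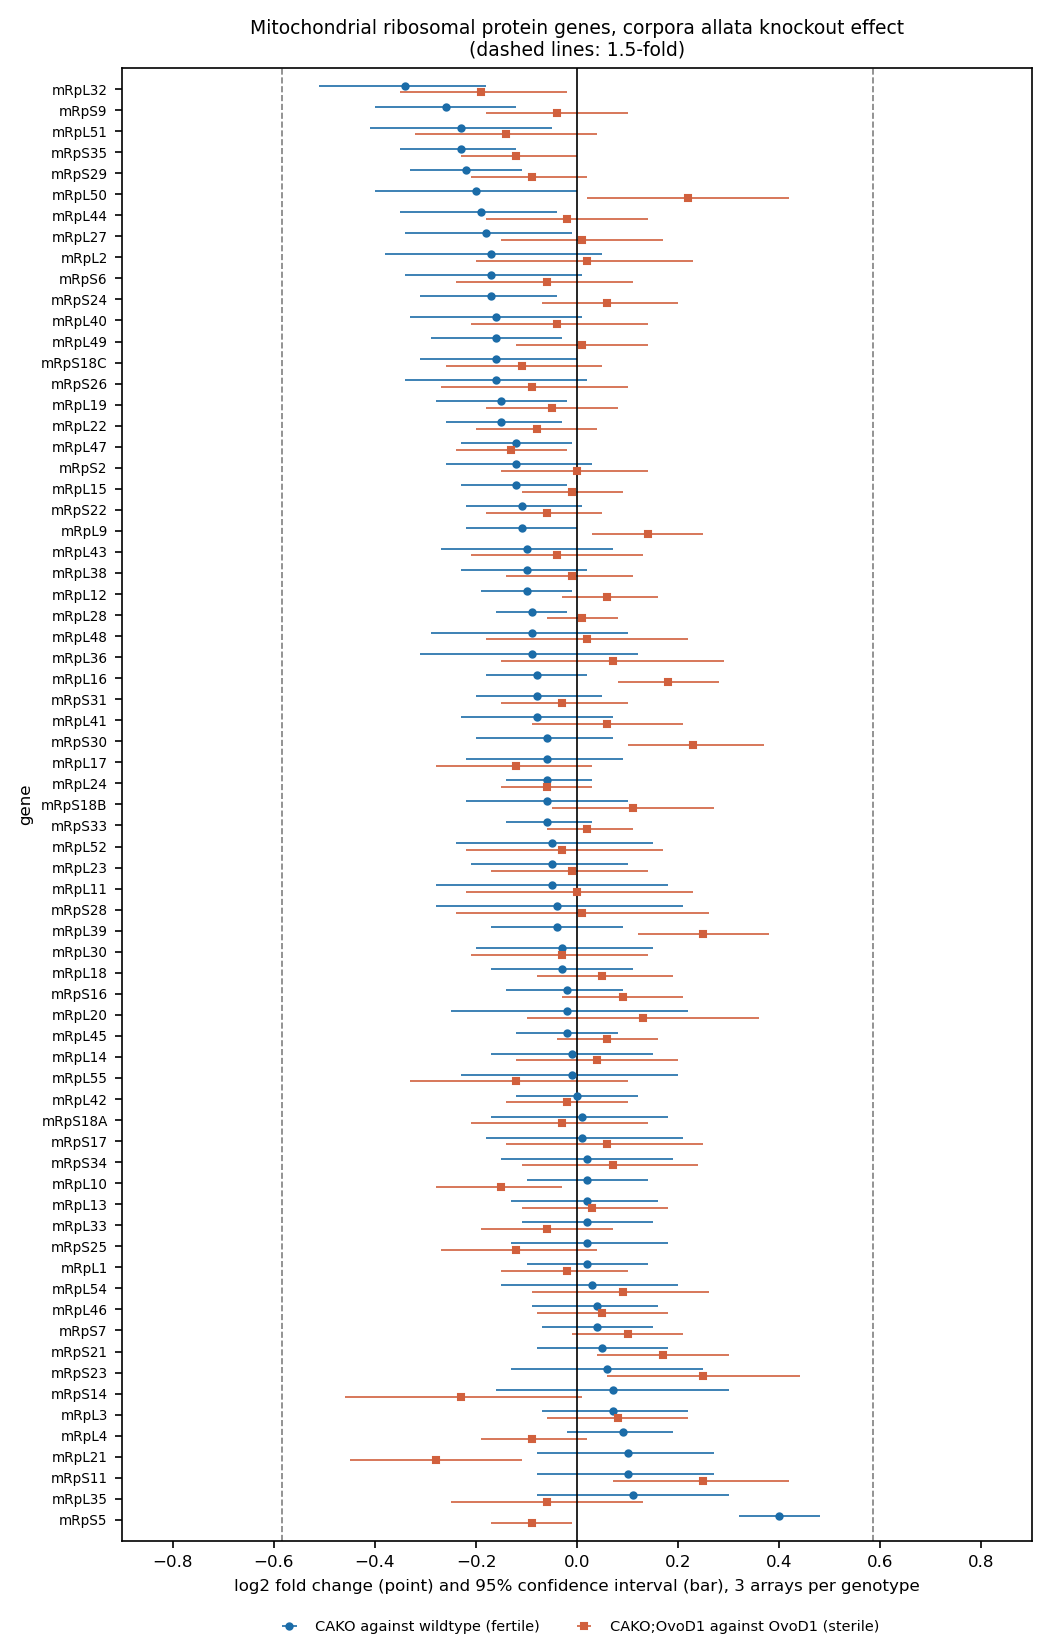
Log2 fold change with its 95% confidence interval for the 69 genes, in CAKO against wildtype (circles) and CAKO;OvoD1 against OvoD1 (squares), 3 arrays per genotype, ordered by the fertile effect. All intervals lie inside the dashed lines at 1.5-fold, and mRpS5 stands alone at the foot with a fertile effect of 0.40. With arrays centred on muscle and photoreceptor genes every effect moves down, by 0.21 in fertile and 0.32 in sterile females, and 1 fertile and 0 sterile effects stay above 0.

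The difference between the knockout effects, sterile minus fertile, was tested as an interaction. It called 0 members, with 1.34% of all genes called higher and 2.22% lower, and its median was 0.08. Without the fold threshold 0 were higher and 1 was lower, where 2.68% and 3.55% of all genes were, and that gene was mRpS5 (-0.49, SE 0.05, adjusted p = 0.00152). At an unadjusted p under 0.05 the counts were 8 higher (11.6%) and 3 lower (4.35%), where 10.6% of all genes passed in each direction. In the sterile pair mRpS5 read 12.05, 12.08 and 12.07 with corpora allata and 11.96, 11.92 and 12.04 without. Only its 3 CAKO arrays stood apart from the other 9. For mRpL50, which had the largest positive interaction, the difference was 0.42 (SE 0.12, adjusted p = 0.097).

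The second question was what sterility through OvoD1 did to the same genes while the corpora allata were intact. Of the 69, 32 were called lower in OvoD1 than in wildtype and 0 higher (46.4% and 0%), while 28.5% of all genes were called lower and 25% higher. With arrays centred on their median 6 members (8.7%) were called lower, where 21.2% of all genes were, so their share then lay below that of all genes and not above it. That centring, on the median of the probe sets kept, added the same amount to every gene. The median over all genes became 0.37, and the distance of the members from it did not change. As deposited, the median of the probe sets kept was 7.33 to 7.39 on the fertile and 6.98 to 7.02 on the sterile arrays. The median over all probe sets was 2.86 to 2.92 on every array, where 46.6% to 47.5% of values lay near the floor. With arrays centred on muscle and photoreceptor genes all 69 were called lower, where 66.2% of all genes were. The median log2 fold change was -0.54, beside 0 over all genes, and the values ran from -1.40 to 0.07. In all, 66 of the 69 lay below 0, and 61 were lower at an adjusted p under 0.05 whatever the fold, where 37.5% of all genes were lower and 32.9% higher. At an unadjusted p under 0.05, 0 were higher and 62 lower, where 33.9% and 38.3% of all genes were, and the methods' t-test with its fold threshold also called 0 higher.

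The 3 largest falls were in genes of the large subunit. Protein L12, encoded by mRpL12, is the repeated protein of the flexible stalk that recruits translation factors. It read 11.87, 11.89 and 11.87 on the wildtype arrays and 10.45, 10.56 and 10.57 on the OvoD1 arrays, 2.55-fold less (log2 fold change -1.35, SE 0.04, adjusted p = 6.60e-09). The gap between the genotypes was many times the spread of the replicates. Of the other stalk genes, mRpL11, at the stalk base, was 1.68-fold lower (-0.74, SE 0.10, adjusted p = 0.000109), and mRpL10, which anchors the stalk, was 1.35-fold lower (-0.43, SE 0.05, adjusted p = 6.81e-05) and not called.

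The mitochondrion-specific gene mRpL39 had the largest change of the 69. It read 9.97, 9.99 and 9.88 in wildtype and 8.55, 8.55 and 8.54 in OvoD1, 2.63-fold lower (-1.40, SE 0.06, adjusted p = 3.80e-08). The gene mRpL50, also without a bacterial counterpart by its number, read 9.52, 9.35 and 9.17 against 8.02, 7.94 and 8.05, 2.54-fold lower (-1.34, SE 0.09, adjusted p = 6.47e-07). Wildtype varied more here than for mRpL39, but its lowest array was still above every OvoD1 array. Other mitochondrion-specific large subunit genes called lower were mRpL44, whose product has a fold related to RNase III (-0.94), mRpL54 (-0.93), mRpL49 (-0.84) and mRpL38 (-0.73).

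Among the bacterial-type large subunit genes, mRpL15, which encodes a protein of the subunit core, read 9.93, 9.98 and 9.82 in wildtype and 8.59, 8.72 and 8.70 in OvoD1. It was 2.35-fold lower (-1.24, SE 0.04, adjusted p = 1.72e-08). Genes for proteins at the peptidyl transferase centre differed among themselves. Of these mRpL3 was called lower (-0.64, adjusted p = 1.03e-05), as was mRpL16 (-0.60, adjusted p = 1.38e-06), but mRpL2 lay at 0.07 (95% confidence interval -0.15 to 0.28, adjusted p = 0.607). Genes for proteins along the exit tunnel, through which the new chain leaves, differed as well. Not called were mRpL4 at -0.39, mRpL22 at -0.47, mRpL23 at -0.56 and mRpL24 at -0.06, of which all but mRpL24 (adjusted p = 0.234) passed the adjusted p below the fold threshold. Called lower were mRpL17 at -0.77 and mRpL32 at -0.90, whose bacterial counterparts lie near the tunnel exit. These genes were picked by role and are not a fixed list.

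In the small subunit set, mRpS18A fell furthest. It read 10.77, 10.73 and 10.49 in wildtype and 9.30, 9.33 and 9.46 in OvoD1, 2.46-fold lower (-1.30, SE 0.08, adjusted p = 3.83e-07). It is 1 of 3 paralogs of the bacterial protein S18, and in mammals its product sits in the large subunit despite its name. The second, mRpS18B, was 1.83-fold lower (-0.87, SE 0.07, adjusted p = 3.07e-06), on a probe set whose suffix marks it as one that can match transcripts of more than 1 gene. The third, mRpS18C, was 1.45-fold lower (-0.54, SE 0.07, adjusted p = 7.22e-05) and not called. All 3 were separated from wildtype without overlap. Called with them were mRpS23 (-1.09, 2.13-fold), mRpS29 (-0.90), mRpS28 (-0.88), mRpS26 (-0.83), mRpS2 (-0.77), mRpS16 (-0.76), mRpS35 (-0.75) and mRpS11 (-0.75).

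**Figure D3:**
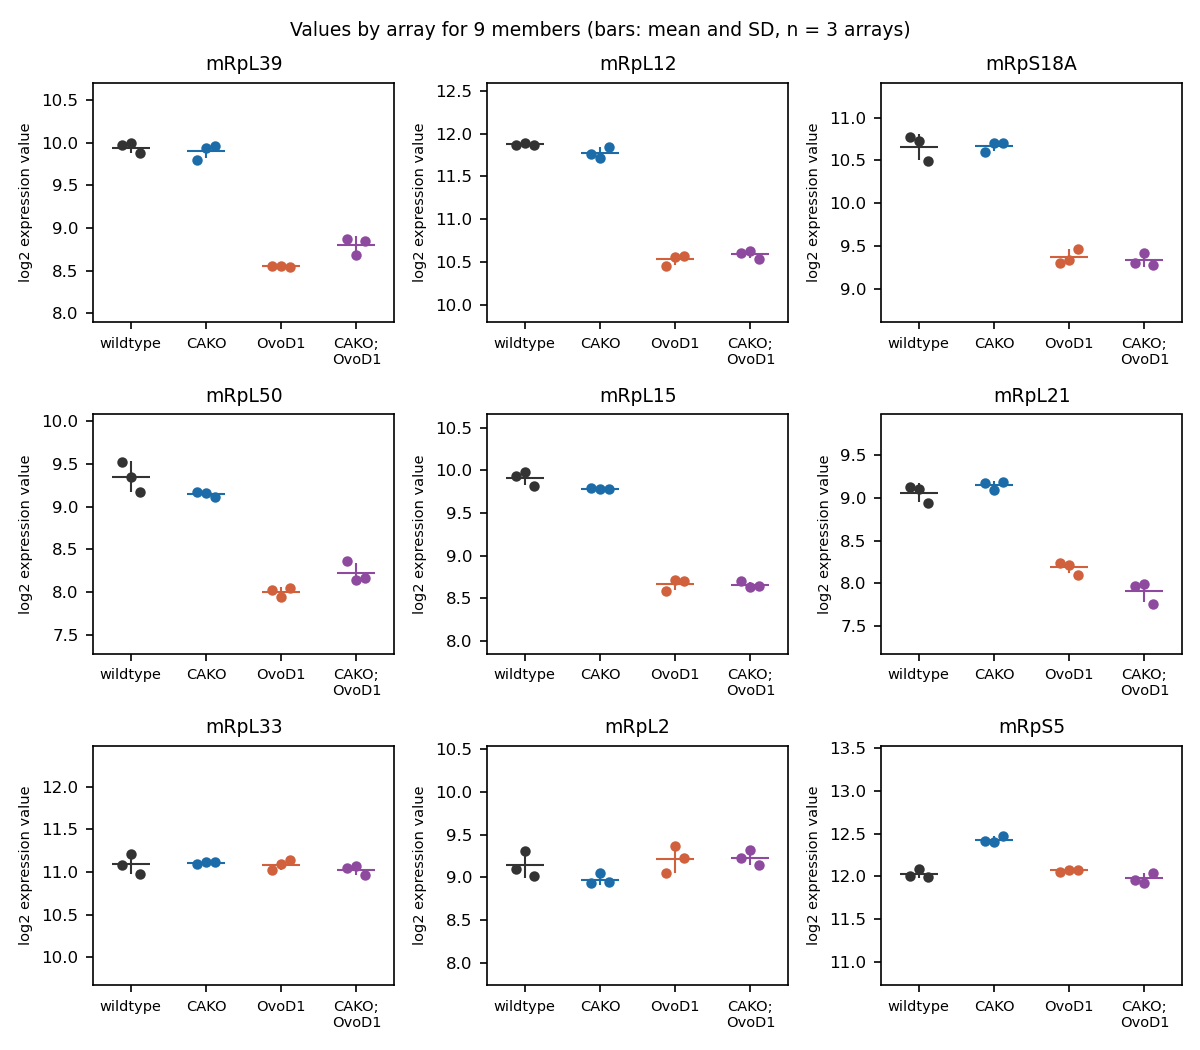
Log2 expression values as deposited, by array, for 9 of the genes, with the mean and SD of 3 arrays per genotype. The vertical axes span the same number of log2 units. In the upper 6 panels all OvoD1 and CAKO;OvoD1 arrays lie below all wildtype and CAKO arrays. In the lower panels mRpL33 and mRpL2 overlap between wildtype and OvoD1. Between CAKO and CAKO;OvoD1 they do not, with mRpL33 lower and mRpL2 higher in CAKO;OvoD1 (adjusted p = 0.241 and 0.0426, limma). The gene mRpS5 is set apart on the CAKO arrays only, at 12.40 to 12.47.

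By subunit, 22 of 44 large subunit genes (50%) and 10 of 25 small subunit genes (40%) were called lower, with medians of -0.58 and -0.52. By origin, 21 of 40 bacterial-type genes, numbered up to 36 in the large and 21 in the small subunit, and 11 of 29 mitochondrion-specific genes with higher numbers were called lower, with medians of -0.60 and -0.51. The classes by origin follow the number alone, and the second holds mRpL47, a counterpart of bacterial L29. The subunits likewise follow the symbol alone, so mRpS18A is counted as small. These differences between classes were not tested. Of the 37 genes not called, 29 passed the adjusted p below 1.5-fold, all lower, and 8 did not pass: mRpL2, mRpL24, mRpL33, mRpL35, mRpL41, mRpL48, mRpS5 and mRpS14.

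The 3 genes with the smallest change were mRpL35, mRpL33 and mRpL41. The gene mRpL33 read 11.08, 11.21 and 10.98 in wildtype and 11.02, 11.09 and 11.14 in OvoD1, and the genotypes overlapped (log2 fold change -0.01, 95% confidence interval -0.14 to 0.12, adjusted p = 1). The intervals were -0.19 to 0.19 for mRpL35 and -0.16 to 0.14 for mRpL41. Each of these intervals leaves out a change as large as the median of the 69. The order of these genes relative to the others does not move with the centring of the arrays, but their sign does: with arrays centred on the median mRpL33 and mRpL41 lay at 0.36, and with arrays centred on muscle and photoreceptor genes mRpL35 lay at -0.80.

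The third comparison asked the same of OvoD1 where the corpora allata were removed in both genotypes. In CAKO;OvoD1 against CAKO 30 of the 69 were called lower (43.5%) and 0 higher, beside 26.5% and 25.3% of all genes. With arrays centred on their median this became 5 lower (7.25%) and 1 higher (mRpL2, 1.45%), where 19.5% and 34.9% of all genes were, again below the share of all genes. At that centring the median over all genes was 0.36. With arrays centred on muscle and photoreceptor genes 69 were lower, where 68.3% of all genes were. The median was -0.52 and the range -1.34 to 0.25. Without the fold threshold 58 were lower and 1, mRpL2, was higher (0.25, adjusted p = 0.0426), where 35.2% and 34.4% of all genes were. At an unadjusted p under 0.05, 1 was higher and 58 lower, where 35.7% and 36% of all genes were, and the methods' t-test with its fold threshold called 0 higher.

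The largest fall here was that of mRpS18A, with 10.60, 10.70 and 10.71 in CAKO and 9.30, 9.42 and 9.28 in CAKO;OvoD1 (2.53-fold lower, log2 fold change -1.34, SE 0.08, adjusted p = 3.84e-07). It was followed by mRpL21, with 9.18, 9.09 and 9.19 against 7.97, 7.99 and 7.76 (2.37-fold lower, -1.25, SE 0.08, adjusted p = 4.97e-07). In neither gene did the genotypes overlap. The stalk gene mRpL12 read 11.76, 11.72 and 11.84 against 10.60, 10.63 and 10.53 (2.28-fold lower, -1.19, SE 0.04, adjusted p = 1.65e-08). Next came mRpL15 (2.17-fold lower, adjusted p = 3.61e-08) and mRpL39 (2.15-fold lower, adjusted p = 1.92e-07), which also held apart on all arrays. The 10 genes that did not pass the adjusted p were mRpL24, mRpL27, mRpL28, mRpL33, mRpL35, mRpL41, mRpL48, mRpS9, mRpS30 and mRpS33, and 5 of them were also among the 8 of the first OvoD1 comparison.

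Both OvoD1 comparisons, which share no array, called 29 genes lower. That is 90.6% of the 32 and 96.7% of the 30, beside 89.2% and 96.1% for the genes called lower among all tested, the members included. Called only with intact corpora allata were mRpL9, mRpL16 and mRpL18, and only without them mRpL10. Of these mRpL16 went from -0.60 to -0.34, and its interaction had an adjusted p of 0.0501. For mRpL21 the values were -0.87 and -1.25 (interaction -0.38, adjusted p = 0.0854) and for mRpL39 -1.40 and -1.10 (interaction 0.29, adjusted p = 0.0819), so no difference between the comparisons passed the threshold for these genes. It did for mRpS5, at 0.04 (adjusted p = 0.398) with intact corpora allata and -0.45 (adjusted p = 2.80e-06) without. Across the 69 genes the effects had a Pearson's r of 0.91 and a Spearman's rho of 0.92, beside 0.95 and 0.96 over all genes tested, again as a description.

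**Figure D4:**
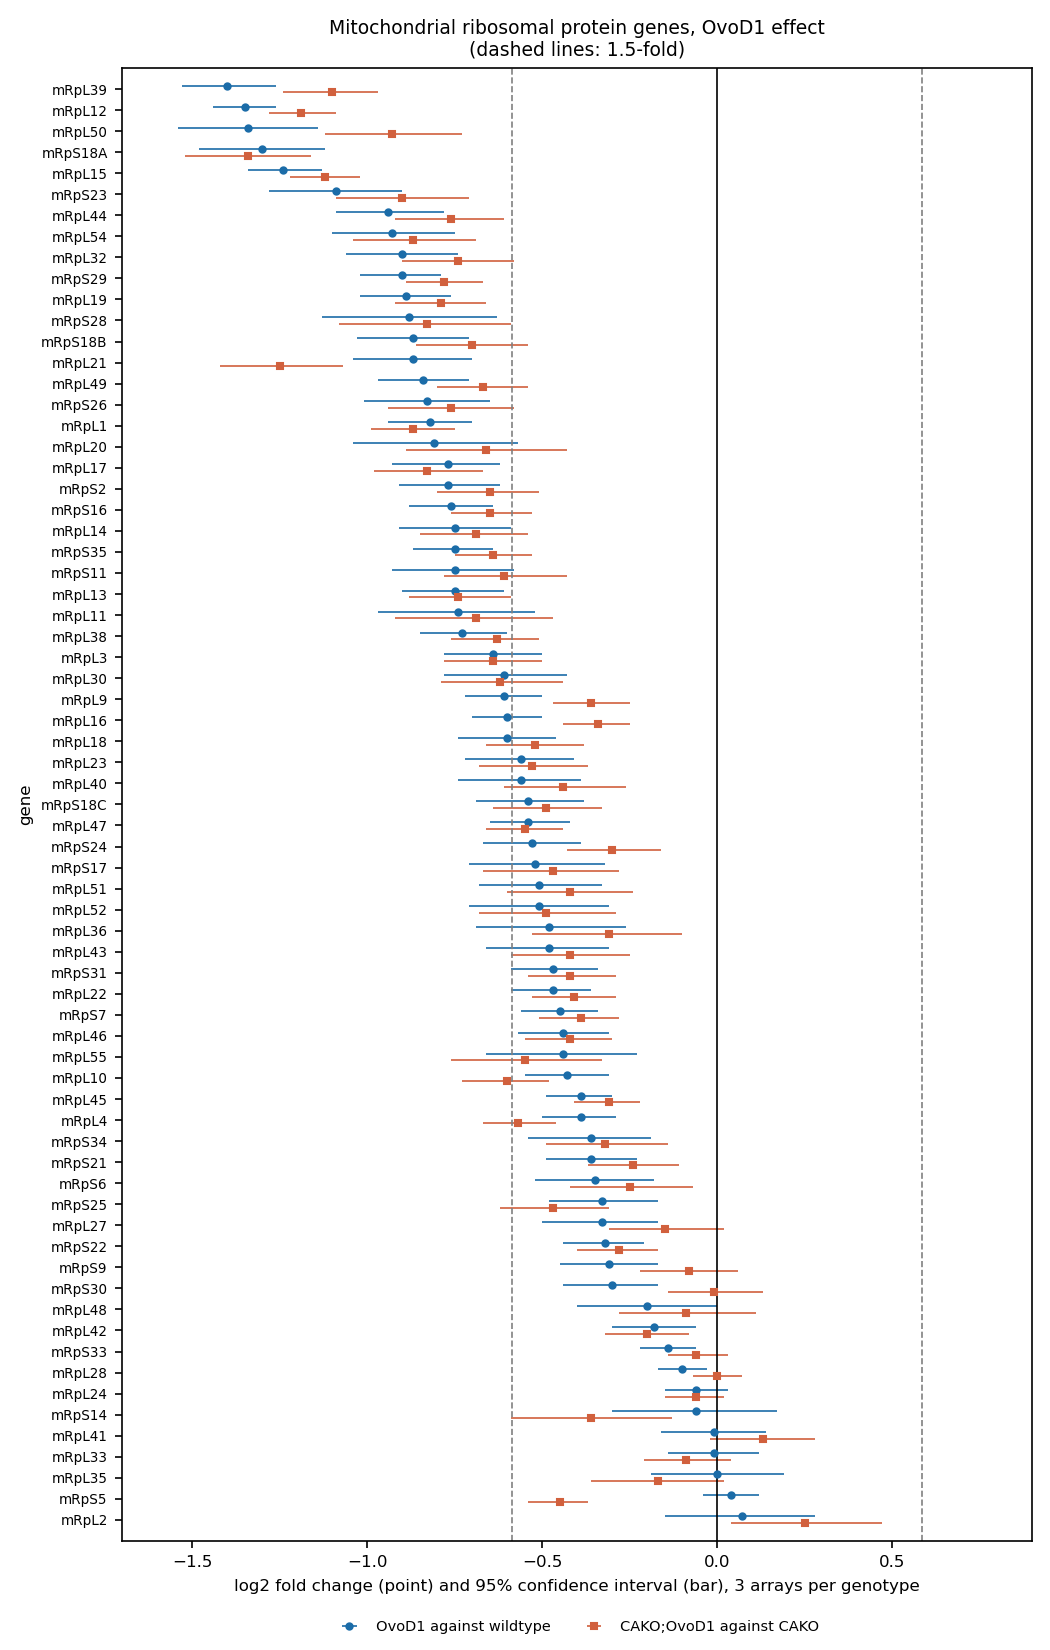
Log2 fold change with its 95% confidence interval for the 69 genes, in OvoD1 against wildtype (circles) and CAKO;OvoD1 against CAKO (squares), 3 arrays per genotype, ordered by the first. The genes run from mRpL39 at -1.40 to mRpL2 at 0.07, and 66 and 67 of the 69 values lie below 0. With arrays centred on their median the effects move up by 0.37 and 0.36, and 19 and 21 genes lie above 0, none of them among the 32 and 30 called lower.

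Which of these calls stand near the threshold was seen by leaving out arrays. Without wildtype replicate 2 the count of 32 became 28, and mRpL9, mRpL16, mRpL18 and mRpL30 were lost. Without wildtype replicate 1 it became 29, with mRpL3, mRpL18 and mRpL30 lost, and without OvoD1 replicate 1 also 29, with mRpL16, mRpL18 and mRpL30 lost. Without wildtype replicate 3 it became 35, with mRpL23, mRpL40 and mRpS18C gained. In the comparison without corpora allata, mRpS11 was lost without CAKO replicate 1, mRpL30 without CAKO replicate 3, and both without CAKO;OvoD1 replicate 3. The genes with falls over 2-fold were not among those lost.

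Some mitochondrial ribosomal proteins carry other names and so fell outside the rule. The gene tko (technical knockout) encodes protein S12 of the decoding site, and bonsai encodes protein S15. In wildtype tko read 11.40, 11.46 and 11.19, and in OvoD1 10.18, 10.29 and 10.31 (log2 fold change -1.09, SE 0.08, adjusted p = 9.25e-07), and those of bonsai were 10.41, 10.51 and 10.41 against 9.40, 9.51 and 9.55 (-0.96, SE 0.05, adjusted p = 1.72e-07). Both were also called lower without corpora allata, at -1.27 and -0.82, and neither was called with the knockout itself. Of the second probe sets, that of mRpS11 lay at -0.67 and -0.62 in the OvoD1 comparisons, beside -0.75 and -0.61 for the first. For mRpL47 the second lay at -0.59 and -0.66 and was called, while the first lay at -0.54 and -0.55 and was not.

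Other genes of mitochondrial gene expression, taken by name from fixed lists, were set beside the 69, with calls on the deposited values without further centring. Of 14 mitochondrial tRNA synthetases, which charge the tRNAs used by these ribosomes, 11 were called lower in OvoD1 and 0 higher (median -0.93), and 8 lower without corpora allata (median -0.87). Examples were ValRS-m (-1.73, SE 0.11, adjusted p = 6.47e-07) and AspRS-m (-1.11, SE 0.05, adjusted p = 7.69e-08), whereas CysRS-m lay at 0.04 and PheRS-m at 0.39. Of 8 translation factors tested among 11 listed, 7 were called lower (median -0.91), among them the initiation factor mIF3 (-1.78, SE 0.14, adjusted p = 2.36e-06) and the elongation factor mEFG1 (-1.61, SE 0.13, adjusted p = 3.50e-06). Without corpora allata 4 were called lower (median -0.59).

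Of 11 tested genes for the upkeep and transcription of mitochondrial DNA and for its RNA, 6 were called lower in OvoD1 and 1 higher (median -0.60). The single-stranded DNA binding protein mtSSB (-2.21, SE 0.09, adjusted p = 4.39e-08), the DNA polymerase PolG1 (-2.03, SE 0.11, adjusted p = 2.13e-07) and the packaging and transcription factor TFAM (-1.17, SE 0.06, adjusted p = 1.90e-07) were among the lower ones, and SLIRP2 was the higher one (1.01, SE 0.13, adjusted p = 6.54e-05). Without corpora allata 5 were lower and 2 higher. In the corpora allata knockout the tRNA synthetases, the translation factors and these genes had 1 call, in fertile females, that of the ribosome recycling factor gene mRRF2. It read 4.18, 4.15 and 4.54 in wildtype and 3.52, 3.64 and 3.54 in CAKO (log2 fold change -0.73, SE 0.14, adjusted p = 0.00901), near the low end of the scale.

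The larger lists differed from the 69 in OvoD1 in the size or the direction of their changes. The list of the cytosolic ribosome held only the 37 genes with a matching symbol and a probe set of their own, and 34 were tested. Of these, 3 were called lower and 0 higher (median -0.13). The 3 were RpS5b (-2.73), RpL7-like (-0.98) and RpL24-like (-0.77), all copies or relatives of other ribosomal protein genes. Without the fold threshold 28 of the 34 were lower and 0 higher, where 61 of the 69 and 37.5% of all genes were lower. The quartiles of the 34 changes were -0.23 and -0.09. Of 60 tested subunit and assembly genes of the respiratory chain, which mitochondrial ribosomes help to build, 1 was called lower and 4 higher (median 0.17), and 39 were higher against 3 lower without the fold threshold. The only one called lower was the assembly factor gene Sdhaf3 (-1.42). Without corpora allata the counts were 3 lower and 0 higher (median -0.17) for the cytosolic ribosome and 1 lower and 5 higher (median 0.17) for the respiratory chain. Without the fold threshold 30 cytosolic ribosome genes were then lower and 0 higher. In the knockout the cytosolic ribosome had 0 calls. The respiratory chain had 1 gene called higher in fertile and 1 in sterile females (1.67% each, beside 3.89% and 2.26% of all genes) and 0 lower. Under either centring all lists shift by the same amount, so the distance of 0.71 between the medians of the 69 and of the respiratory chain in OvoD1 does not depend on it. No test was made between lists.

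**Figure D5:**
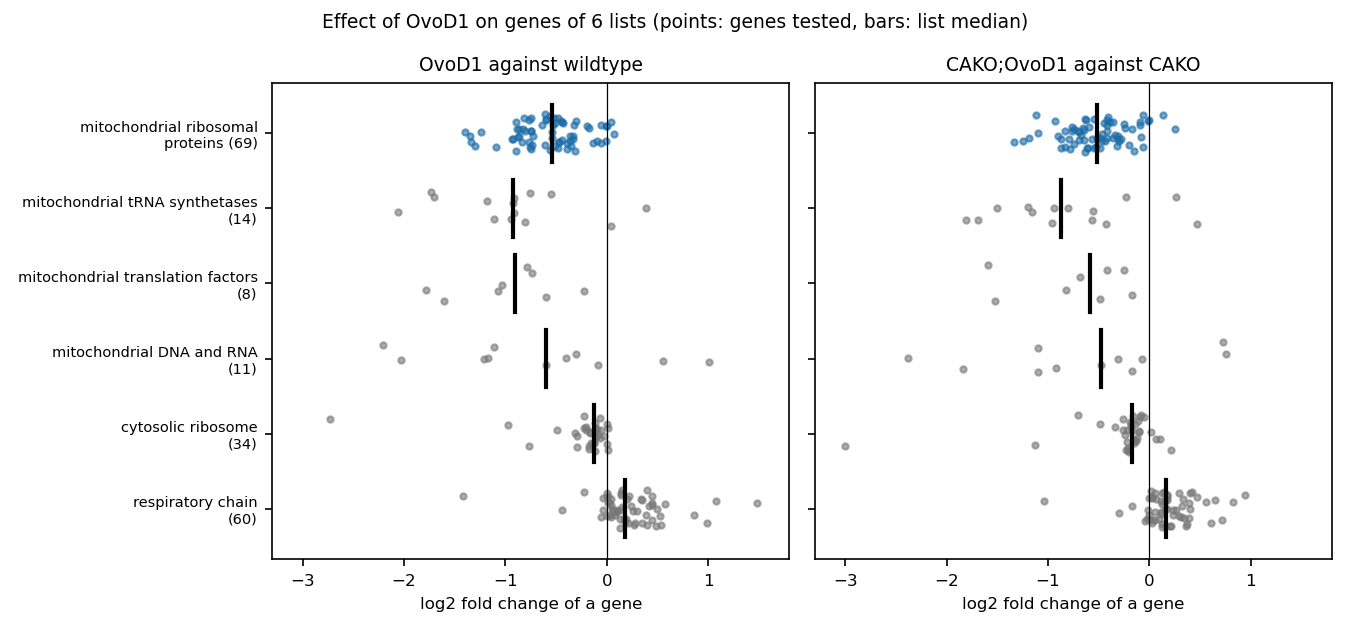
Each point is a gene tested, placed by its log2 fold change in OvoD1 against wildtype (left) or CAKO;OvoD1 against CAKO (right), and each bar is the median of its list. The 69 genes centre on -0.54 and -0.52, between the tRNA synthetases at -0.93 and -0.87 and the cytosolic ribosome at -0.13 and -0.17, with the respiratory chain at 0.17 in both. Other centrings of the arrays shift all points together, by 0.37 and 0.36 or by -0.81 and -0.92.

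Cell type markers differed with OvoD1, and some also differed with the knockout, where the 69 genes changed little. All 9 germ line markers tested were called lower in OvoD1 (median -4.13, smallest change -0.69). Without corpora allata 8 of the 9 were (median -5.36, smallest change -0.13). The mean of 12 late follicle cell markers lay at 12.20 to 13.13 in wildtype, 8.17 to 11.26 in CAKO, 3.19 to 3.48 in OvoD1 and 2.89 to 3.03 in CAKO;OvoD1. In CAKO against wildtype the follicle cell markers had a median of -2.93 while the 69 genes had one of -0.06. The mean of 6 muscle markers lay at 9.70 to 9.82 in wildtype, 10.21 to 10.58 in CAKO, 10.63 to 10.74 in OvoD1 and 11.09 to 11.51 in CAKO;OvoD1. For 5 photoreceptor markers it lay at 10.85 to 11.01 in wildtype, 10.60 to 10.78 in CAKO, 11.50 to 11.61 in OvoD1 and 11.58 to 11.69 in CAKO;OvoD1, so these lists, on which the arrays were centred above, moved themselves. For 5 fat body markers it lay at 10.47 to 10.59 in wildtype, 11.05 to 11.28 in CAKO, 12.81 to 12.86 in OvoD1 and 12.38 to 12.62 in CAKO;OvoD1. The largest change among these 5 was that of Lsp2, at 4.36 in CAKO and 10.23 in OvoD1 against wildtype, and Fbp1 was at the floor on all arrays. The median of the 5 was -0.09 in CAKO (1 called higher, 2 lower) and 0.44 in OvoD1 (2 higher, 0 lower). The part of the cell types in the result was not tested. Among all genes called in OvoD1 against wildtype 53.3% were lower, and this share was 38.4% with median centring and 85.6% with centring on muscle and photoreceptor genes. Without corpora allata it was 51.1%, 35.9% and 91.2%. In the knockout comparisons only the second centring moved it by more than 10 points, from 37.1% to 68.6% in fertile and from 49.2% to 91.1% in sterile females, and from 62.3% to 78% for the interaction.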

How the data were processed

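Total RNA from pooled whole females was hybridised to Affymetrix Drosophila 2.0 arrays, 3 for each of 4 genotypes. The deposited log2 expression values, used unchanged, are the authors' GC-RMA output, whose version is not given in the sources used here. The methods describe the data as quantile normalised. Of 18952 probe sets, 13647 carry 1 gene in the platform annotation, 402 several and 4903 none, and 13544 of the first matched RefSeq by gene identifier. The 5081 probe sets in the first quartile (25%) of the mean in all 4 genotypes were left out, after the methods, and 13871 were kept.

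R 4.3.3 with limma 3.58.1 (lmFit, eBayes with a trend) fitted 1 mean per genotype and left 8 residual degrees of freedom. Two-sided p-values of each comparison were corrected after Benjamini-Hochberg across the 13871 probe sets. The 3 arrays of a genotype are described as biological replicates, nothing says how the pools were drawn from the cages, and only the spread among these arrays, which may be technical, enters the p-values. Their number limits the precision, and an exact permutation test of 3 against 3 cannot go below a p of 0.1. The fit was tested on simulated data. The members, gene lists and tests were chosen with earlier results of these data known. Named by rule were called members in the knockout comparisons or else the 2 largest changes each way, the 5 largest called changes each way of each OvoD1 comparison, the 3 smallest, the S18 paralogs, tko and bonsai. Other names were chosen once their values had been seen. The alternatives were the methods' t-test, other fold thresholds, fits of 2 groups, other filters, 1 or the mean of all probe sets per gene, 2 centrings, array weights, the replicate number as a block, and the removal of single arrays.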

Additional observations from a re-analysis of the deposited data

Results flagged for a closer look

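The effect of the corpora allata knockout on mRpS5 differed between sterile and fertile females by -0.49 on the log2 scale (SE 0.05, 95% confidence interval -0.61 to -0.38, adjusted p = 0.00152 for the interaction in limma). It was flagged because the test of the difference itself passed the adjusted p, although the size of 1.41-fold is below the threshold of 1.5-fold. In fertile females the 3 CAKO arrays were above the 3 wildtype arrays, and in sterile females CAKO;OvoD1 lay at -0.09 relative to OvoD1 (adjusted p = 0.154). The value stayed between -0.53 and -0.47 when each array was left out in turn, and was -0.51 with arrays centred on their median and -0.60 with arrays centred on muscle and photoreceptor genes.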

How the results depend on the processing

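In the knockout and interaction comparisons 0 members were called, and without the fold threshold 1 was higher and 4 lower in fertile females, 3 higher and 1 lower in sterile females, and 1 lower for the interaction. In the OvoD1 comparisons the counts of 32 and 30 lower became 61 and 58 (with 1 higher in the second) without the fold threshold and 6 and 5 at 2-fold. Centring on the array median gave 6 lower (median -0.16, beside 0.37 over all genes). Without corpora allata it gave 5 lower and 1 higher (median -0.16, beside 0.36). These shares were below those of all genes at that centring (21.2% and 19.5% lower, 33.9% and 34.9% higher). That centring put mRpL33 at 0.36 and mRpL41 at 0.36. Centring on muscle and photoreceptor genes gave 69 lower in both (medians -1.34 and -1.44, beside -0.81 and -0.92 over all genes). The fertile median was then -0.27, beside -0.21 over all genes. It gave 1 lower in sterile females (median -0.33, beside -0.32) and 1 lower for the interaction (median -0.03, beside -0.11). This centring put mRpL35 at -0.10 (fertile) and -0.80 (OvoD1), and mRpL39 and mRpS23 at -0.07 each in sterile females. These centrings add 1 constant to all effects of a comparison. Array weights put mRpL35 at -0.01 in OvoD1 and called 32 and 29 lower, with mRpS11 lost. Leaving out each array gave 28 to 35 and 29 to 32 lower, with OvoD1 values of -0.05 to 0.09 for mRpL35, -0.07 to 0.05 for mRpL33 and -0.04 to 0.04 for mRpL41. Same-numbered replicates did not deviate together (r -0.16 to 0.15 over 18 pairs, 2 over 0.1), and the replicate block called 32 and 30 lower. The methods' t-test, with and without adjustment, called the same 32 and 30 genes. Leaving out each array moved the medians from -0.10 to -0.02 (fertile), -0.04 to 0.02 (sterile) and 0.04 to 0.13 (interaction). Of 324 alternative values 300 stayed within the limits set, 1.5 times the count or 0.058 on the log2 scale (1 SD between replicate arrays) for a median. Many of the 324 are counts of 0 in the knockout and interaction comparisons, so this tally says little about the OvoD1 counts. With 3 arrays per genotype, changes smaller than a gene's interval are not resolved.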

Other observations

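The probe sets that mRpS10 and mRpL53 share with another gene cannot be assigned to either. The one of mRpS10 and CG34316 read 10.46, 10.58 and 10.40 in wildtype and 8.56, 8.86 and 8.87 in OvoD1 (log2 fold change -1.72), and -1.73 was the difference without corpora allata. The one of mRpL53 and CG33155 read 10.93, 11.12 and 10.85 against 10.50, 10.65 and 10.58 (-0.39), with -0.39 without corpora allata. The first change is larger than that of any of the 69 genes, on a probe set that the annotation gives to both genes.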
